A study of Arabidopsis thaliana with 8 samples.

Results

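The comparison set the single mutant phyB-9 against wild type (WT) in dark-grown seedlings of Arabidopsis thaliana, accession Columbia, and rests on 4 of the 8 arrays in the series: 2 of phyB-9, called phyB here, and 2 of WT. They were chosen by their titles. The other 4 arrays hold 2 of the phyA-211 mutant (phyA) and 2 of the phyA-211 phyB-9 double mutant (phyAphyB), and were used to estimate the spread and to test where the phyB difference departs from the others. Seeds of every genotype had the same history, namely 5 days of chilling at 6 degrees C, 1 h of white light and then 3 days of full darkness, the light and the darkness at 22 degrees C, on agar at 0.8%. Each mutant is a single named allele, and the labels name whole seedlings. They do not say if both arrays of a group trace to independent cultures, so each p-value measures array-to-array spread that could be technical.

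Phytochrome B is a red and far-red light receptor. Light turns it into an active form that enters the nucleus, where it leads to the breakdown of the PIF transcription factors that keep seedlings in the dark programme of a long hypocotyl, closed cotyledons and undeveloped plastids. In imbibed seeds the same receptor promotes germination, in part through gibberellin, and in darkness the active form slowly reverts, so the brief white light given here is the exposure that the WT receptor could have sensed.

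Each array gave 1 intensity per probe set of the Affymetrix ATH1 array. Of 22746 probe sets without controls, the 13647 brightest were tested, of which 7349 name exactly 1 gene in the platform annotation and 1086 carry a symbol other than a locus number. Values are given as log2(intensity + 39), a scale on which a difference of 1 is a doubling and on which changes of dim probe sets are understated. No named probe set exists for PHYB or PHYA, so the phyB-9 label could not be checked on its own gene. The arrays of WT replicate 1 and phyB replicate 2 stand apart by the 3'/5' ratio of the GAPDH control, a measure of how evenly the transcript was labelled along its length. The ratio reached 16.7 on the first of these arrays and 7.87 on the second. WT replicate 2 had 2.19 and phyB replicate 1 had 1.45. The same ratio of the actin control gave another order, with 46.7 and 10.8 in WT replicates 1 and 2, and 3.89 and 7.5 in those of phyB, so WT replicate 2 is not low by both controls. The difference of phyB replicate 1 from WT replicate 2, called the remaining pair here, leaves out both arrays of high GAPDH ratio and is given for the lists and for the genes described most fully. It is 1 array against 1 and carries no test.

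Of the markers for the labelled tissue, PORB (a chlorophyll synthesis enzyme of dark-grown seedlings), ICL and PAP85 were bright, with summed intensities of 109162 and 121089 in WT and 164653 and 206991 in phyB. The pollen markers ANX1 and ANX2 were dim on every array, at summed intensities of 45 and 135 in WT and 57 and 81 in phyB, and the guard cell marker FMA lay between 268 and 525 in these 4 arrays. The root hair markers EXPA7 and EXPA18 summed to 715 and 1523 in WT and to 1542 and 2141 in phyB. The leaf markers RCA, SBPASE and PRK summed to 58972 and 63457 in WT and to 62163 and 68820 in phyB. These are the 11 markers with a named probe set, out of 13 written for pollen, 6 for guard cells, 11 for root hairs, 16 for leaves and 11 for dark-grown seedlings, and none of them was listed at 0. Of 10 markers of flower organs and 9 of root vasculature, 0 had one. Their part in the results was not tested.

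The differences between phyB and WT arrays were about as many as those within a genotype. The 2 phyB arrays were at least 1 log2 unit apart at 14.3% of the probe sets tested, and the 2 WT arrays at 18.3%. The 4 pairs of a phyB and a WT array differed by that much at 13.8% to 16.4%, the lowest being the remaining pair. Thus 3 of these 4 pairs exceeded the pair of phyB arrays, and none exceeded the pair of WT arrays, which holds the array with the GAPDH ratio of 16.7. The direction of these differences followed the WT array. Against WT replicate 1, more probe sets were higher than lower in phyB, with 1406 against 832 in replicate 1 and 1520 against 703 in replicate 2. Against WT replicate 2 more were lower, with 414 higher and 1471 lower in phyB replicate 1 and 936 higher and 1306 lower in phyB replicate 2. The differences of 2 pairs that share no array were nearly uncorrelated over the probe sets, given as a description since probe sets are not independent: r was -0.02 for phyB replicate 1 minus WT replicate 1 against phyB replicate 2 minus WT replicate 2, and 0.04 for the crossed pairs.

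**Figure D1:**
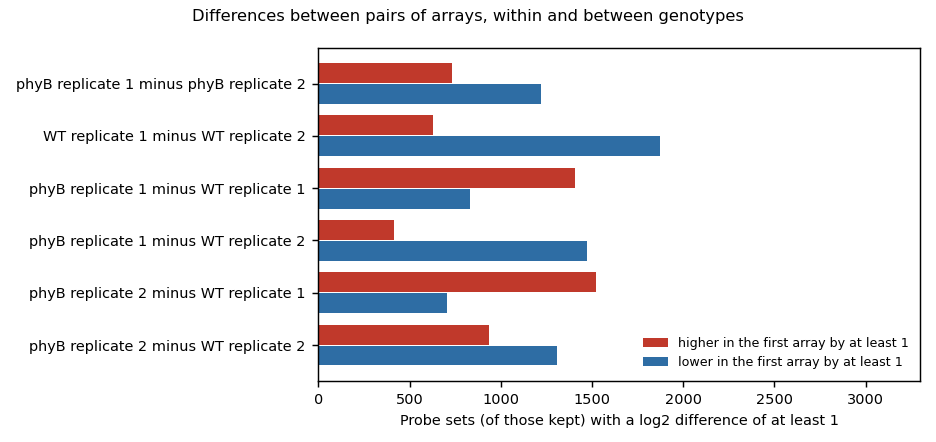
Number of probe sets, of the 13647 tested, that differ by at least 1 on the log2 scale between 2 arrays, for the 2 pairs within a genotype (top) and the 4 pairs of a phyB with a WT array. Bars start at 0. The pairs between genotypes lie between 13.8% and 16.4% of probe sets, against 14.3% for the phyB arrays and 18.3% for the WT arrays, and the balance of higher and lower turns with the WT array used.

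No probe set passed the test of phyB against WT, 0% of the 13647 (limma, Benjamini-Hochberg adjusted p under 0.05; smallest adjusted p = 0.056). At an unadjusted p under 0.05 there were 531 higher and 278 lower, 3.89% and 2.04% of those tested, where 682.35 in all are expected with no change. By differences of at least 1 log2 unit, more probe sets were higher than lower in phyB only against WT replicate 1, as described above. The remaining pair has 1 array per genotype and no spread of its own, so its count is given only among the alternatives below. The median difference over all probe sets tested was -0.06, and the median standard error of a difference was 0.42. Whole seedlings were measured, so fewer cells of a type and less RNA per cell cannot be told apart in any value here.

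A small set of probe sets had the groups wide apart. In 74 of them (0.542% of those tested) both phyB arrays lay at least 1 log2 unit above both WT arrays, and in 17 (0.125%) at least 1 below, counts that use size alone and carry no p. The 74 include 28 probe sets that name 1 gene and the 17 include 8. The phyA mean lay on the same side of the WT mean in 68 of the 74 and 16 of the 17. Both phyB arrays lay beyond both phyA arrays in 51 of the 74 and 10 of the 17. The same WT arrays that picked the probe sets enter the comparison of phyA with WT. The shares over all probe sets were not counted, so these counts are no result about the picked ones. The widest gap belonged to 252957_at, which has no gene name in the tables used. It read 539 and 1042 intensity units in WT and 8840 and 8096 in phyB, a log2 difference of 3.43 (SE 0.40, limma adjusted p = 0.056). The next widest was 253767_at, also without a name, with 9325 and 9784 in WT and 61093 and 52253 in phyB (2.56, SE 0.30, adjusted p = 0.056). Both are bright in phyB and far above the constant of 39 in WT, so their sizes hardly depend on it. The third of smallest p among unnamed probe sets, 258240_at, read 464 and 1217 in WT and 9301 and 5287 in phyB (3.15, SE 0.47, limma adjusted p = 0.22). On the log2 scale it was 13.19 and 12.38 in phyB and 12.13 and 12.20 in phyA, so phyA also stood above WT. These 3 unnamed probe sets were picked to have both phyB arrays beyond both WT arrays, which fixes the sign of the remaining pair. Its sizes were 3.04, 2.64 and 2.89. Calls appeared for the first 2 with another filter: with 60% of probe sets left out both had an adjusted p of 0.036, and with no filter 252957_at had 0.044.

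The 15 genes of smallest p on the higher side were picked to have both phyB arrays above both WT arrays. That rule fixes the lack of overlap and the sign of the remaining pair. Of these 15 genes, 2 carry a symbol. The first is PDF2.1, a plant defensin, one of the small cysteine-rich peptides that plants secrete in defence and in seeds. Its log2 values were 10.69 and 9.31 in WT and 12.29 and 12.51 in phyB. Most of the spread lay in WT. The difference was 2.41 (SE 0.49, 5.30-fold, limma adjusted p = 0.57), and 2.98 in the remaining pair. PRA1.E, a prenylated Rab acceptor of the vesicle trafficking machinery, was 10.17 and 10.99 in WT and 12.25 and 12.61 in phyB (1.84, SE 0.39, adjusted p = 0.59). For PRA1.E the remaining pair gave 1.25.

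The 13 other genes of smallest p on the higher side have a locus number only, and no role is given for them in the tables used. AT5G45350 was 12.94 and 12.86 in WT and 14.47 and 14.92 in phyB (1.80, SE 0.33, limma adjusted p = 0.36). AT2G27580 was 10.11 and 10.42 in WT and 11.77 and 12.26 in phyB (1.75, SE 0.36, adjusted p = 0.57). AT5G37670, the dimmest of the 15, was 7.61 and 8.02 in WT and 9.62 and 10.60 in phyB. In these 3 genes the WT arrays lay close together and well below both phyB arrays. AT1G76010 had the largest difference, 2.85 (SE 0.62, adjusted p = 0.59), with WT values of 9.70 and 11.73 and phyB values of 13.19 and 13.95. There WT replicate 1 adds most to the size, since phyB replicate 1 was 1.46 above WT replicate 2. The other 9 were AT3G01820 (1.73), AT3G26770 (1.53), AT3G54940 (1.37), AT1G23040 (1.75), AT2G27830 (1.62), AT5G50450 (1.60), AT3G52760 (1.25), AT1G78020 (1.49) and AT1G54860 (1.82), with standard errors between 0.31 and 0.45 and adjusted p between 0.59 and 0.70. Over the 15 genes the remaining pair ran from 0.95 to 2.98.

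On the lower side the farthest was AT3G59340, a locus without a role in the tables used, at 9.32 and 9.98 in WT and 6.78 and 7.26 in phyB. Its difference was -2.63 (SE 0.47, limma adjusted p = 0.36), and WT stood 6.18-fold above phyB. AT3G55920 was 12.08 and 11.56 in WT and 9.50 and 10.10 in phyB (-2.02, SE 0.38, adjusted p = 0.47), and AT2G19970 was 11.52 and 11.93 in WT and 9.88 and 9.90 in phyB (-1.83, SE 0.39). The genes on this side were picked to have both phyB arrays below both WT arrays, so their lack of overlap is no result. The remaining pair gave -3.19 for AT3G59340, -2.06 for AT3G55920 and -2.05 for AT2G19970. In phyA, AT3G55920 was 10.05 and 9.98 and AT2G19970 was 10.09 and 9.96, both near phyB. AT3G59340 was 9.46 and 10.02 in phyA, near WT.

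Of the 15 genes on the lower side, 5 carry a symbol. DELTA-VPE, a vacuolar processing enzyme, which is a protease first described in the seed coat, was 11.74 and 12.06 in WT and 10.14 and 10.37 in phyB (-1.65, SE 0.43, limma adjusted p = 0.70). The subtilase ATSBT5.2, a serine protease, read 11.87 and 11.88 in WT and 10.46 and 10.71 in phyB (-1.29, SE 0.35, adjusted p = 0.70). A further subtilase, SBT4.12, was 14.46 and 13.92 in WT and 13.16 and 13.13 in phyB (-1.05, SE 0.33). AAPT2, an aminoalcoholphosphotransferase of phospholipid synthesis, stood at -1.18 (SE 0.34) and GAT1_2.1, a glutamine amidotransferase, at -1.16 (SE 0.35). The other 7 genes were AT1G50630 (-1.25), AT3G05400 (-1.51), AT2G21830 (-1.13), AT1G10340 (-1.39), AT1G19430 (-1.11), AT1G23440 (-1.05) and AT3G24530 (-1.36), at adjusted p = 0.70 or 0.74. AT3G05400 read 11.38 and 10.05 in phyB, and its difference was -2.18 or -0.85 with 1 of these arrays left out. Over the 15 genes the remaining pair ran from -3.19 to -0.77.

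**Figure D2:**
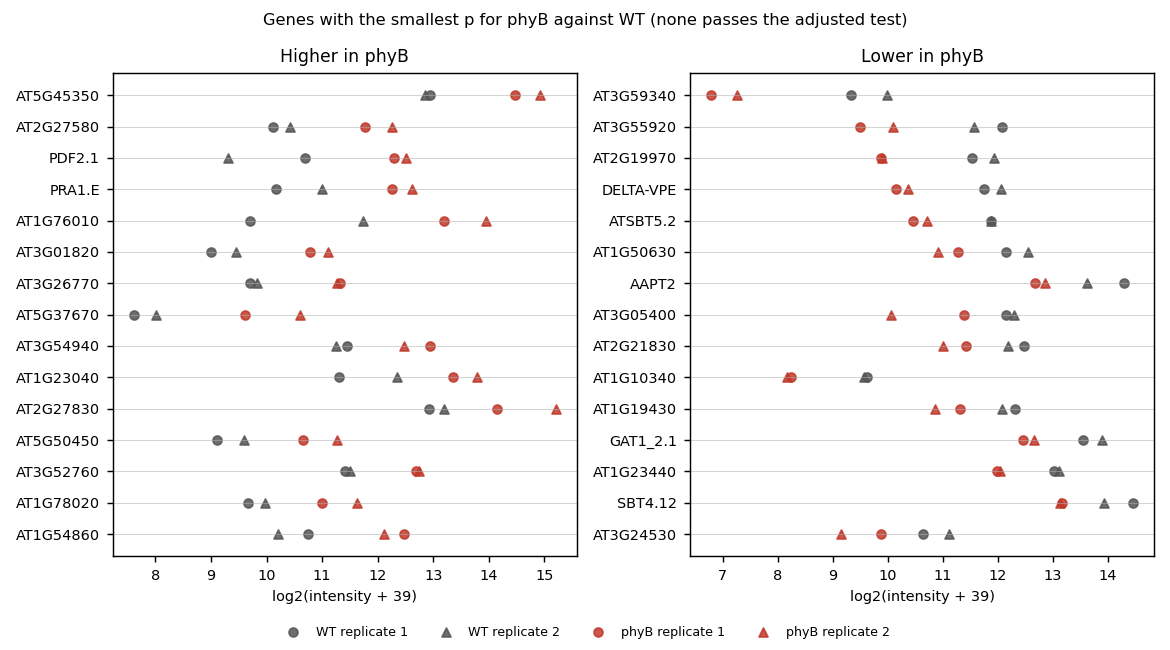
Values, as log2(intensity + 39), of the 15 genes of smallest p on each side for phyB against WT, with circles for replicate 1 and triangles for replicate 2. These genes were picked to have both phyB arrays beyond both WT arrays. PDF2.1 and AT1G76010 have widely spaced WT arrays, and AT3G59340 is the farthest of those lower in phyB.

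Most nuclear genes for photosystems and light harvesting had positive differences, without a call. These encode chlorophyll-binding antenna proteins and small photosystem subunits, a class that PIF factors repress in darkness. Of 8 measured, 7 had a positive difference, none passed the test, and in 4 (50.0%) both phyB arrays lay above both WT arrays, against 14.7% of all probe sets tested. The median was 0.45 beside -0.06 over all probe sets, and 0.62 in the remaining pair. In the phyA background the list's median went the other way, at -0.35 for phyAphyB minus phyA. LHCB4.2, which binds chlorophyll beside the photosystem II core, was 12.50 and 13.32 in WT and 14.46 and 14.19 in phyB (1.42, SE 0.37, limma adjusted p = 0.70; remaining pair 1.14). It was as high in phyA, at 14.71 and 14.28, and stood at 13.40 and 13.67 in phyAphyB. PSBY, a small subunit of photosystem II, was 13.51 and 13.47 in WT and 14.56 and 14.44 in phyB (1.01, SE 0.34, adjusted p = 0.74; remaining pair 1.09). LHCB4.2 and PSBY were picked for the smallest p in the list, which favours groups that lie apart, as theirs did. LHCB4.1 was 15.35 and 15.12 in WT and 15.72 and 16.28 in phyB (0.76, SE 0.36).

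Of 8 chlorophyll synthesis genes, 4 were positive and 4 negative, with a median of -0.02 and 0.18 in the remaining pair. CHLM, which methylates magnesium protoporphyrin, was the 1 of 8 (12.5%, against 14.7% of all probe sets) with both phyB arrays above both WT arrays. Its difference was 0.68 (SE 0.32, limma adjusted p = 0.83). PORB, which reduces protochlorophyllide in the light, was 15.85 and 15.40 in WT and 15.84 and 15.07 in phyB. HEMA2 stood at -0.38 (SE 0.65). Of the 4 genes in the Calvin cycle list, matched by symbol, 3 were positive and none passed the test, with a median of 0.25 and 0.43 in the remaining pair. TPI, triose phosphate isomerase, was the 1 of 4 (25.0%, against 14.7% of all probe sets) with both phyB arrays above both WT arrays, at 15.43 and 15.28 in WT and 15.79 and 15.90 in phyB (0.49, SE 0.31). Whether the TPI probe set measures an enzyme of the cycle was not checked. RCA, the activase of Rubisco, stood at 0.71 (SE 0.42) and PRK at -0.21 (SE 0.32).

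Plastid-encoded genes stood higher in phyB as a group, but through 1 array. Of 69 measured, 65 were positive and none passed the test. In 20 (29%) both phyB arrays lay above both WT arrays and in 0 below, against 14.7% and 18.2% of all probe sets. The median over the list, relative to the WT mean, was 0.04 in phyB replicate 1 and 1.51 in phyB replicate 2. In the remaining pair it was -0.14. The GAPDH ratio of phyB replicate 2 was 7.87. Relative to the WT mean, the list stood at 0.15 and 1.19 in phyA replicates 1 and 2, where the ratio was 1.31 and 1.57. In phyAphyB it stood at 0.38 and 0.25, at ratios of 2.31 and 1.96. In WT replicate 1, itself part of that mean, it stood at -0.16, at a ratio of 16.7. A link between the ratio and the list was not tested.

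The high level in phyB replicate 2 ran through all 8 groups of plastid genes, while in phyB replicate 1 the groups differed. Relative to the WT mean, the medians in phyB replicate 2 lay between 1.00 for the 7 large ribosomal subunit genes and 1.83 for the 8 small ribosomal subunit genes. In phyB replicate 1 they were 0.39 for 15 photosystem II genes, 0.34 for 4 RNA polymerase genes, 0.18 for 6 cytochrome b6f genes and 0.04 for 6 ATP synthase genes. In that array they were -0.12 for small ribosomal subunit genes, -0.22 for 7 photosystem I genes, -0.42 for 10 NDH genes and -0.89 for large ribosomal subunit genes. psbC, which encodes a core antenna protein of photosystem II, was 10.61 and 11.37 in WT and 13.17 and 12.50 in phyB (1.85, SE 0.49, limma adjusted p = 0.70), and it was also high in phyA, at 13.97 and 12.63. petB, the cytochrome b6 subunit, was 13.56 and 14.80 in WT and 15.66 and 15.58 in phyB (1.44, SE 0.41). rpoC1, a subunit of the plastid RNA polymerase, was 11.98 and 11.69 in WT and 12.68 and 13.55 in phyB (1.28, SE 0.41). These 3 were high in both phyB arrays and their groups did not overlap. They were picked as the members of smallest p in the list, which favours such a separation, so they do not speak for the other members. The remaining pair gave 1.80 for psbC, 0.85 for petB and 1.00 for rpoC1.

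**Figure D3:**
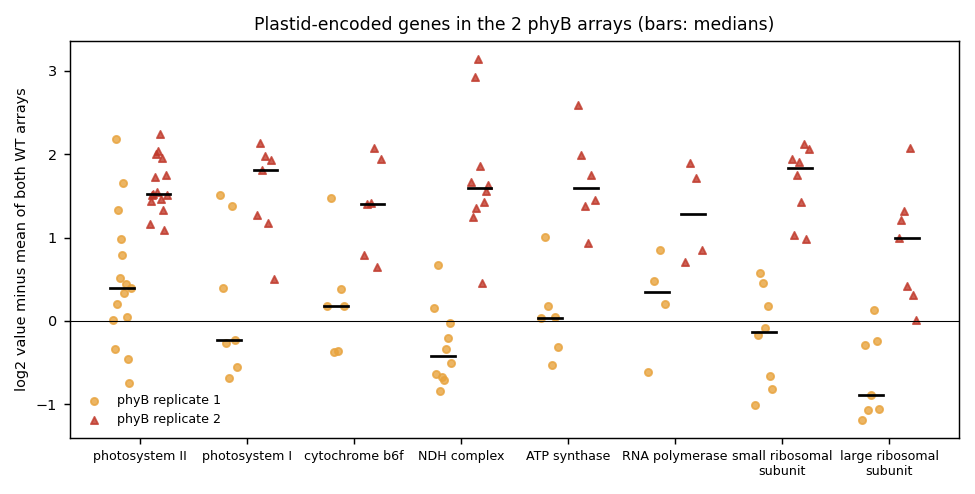
Log2 value of each plastid-encoded gene in phyB replicate 1 (circles) and phyB replicate 2 (triangles) minus its mean in both WT arrays, by complex, with the median of each as a bar. In phyB replicate 2 the medians lie between 1.00 and 1.83, and in phyB replicate 1 between -0.89 and 0.39.

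Mitochondrion-encoded genes were likewise highest in phyB replicate 2. All 12 measured were positive, none passed the test, and in 7 (58.3%, against 14.7% of all probe sets) both phyB arrays lay above both WT arrays, with a median of 0.34 in the remaining pair, and of 0.19 in phyB replicate 1 and 1.45 in phyB replicate 2 relative to the WT mean. In the phyA background the median of this list went the other way, at -0.73 for phyAphyB minus phyA. orfX was 9.76 and 9.89 in WT and 10.78 and 11.58 in phyB (1.35, SE 0.43, limma adjusted p = 0.74), high in both phyB arrays. ccb452 and ccb206, named after cytochrome c biogenesis, read 10.07 and 9.21 in phyB replicate 1 and 11.55 and 10.69 in phyB replicate 2, against 9.89 and 8.90 in WT replicate 1 and 9.75 and 8.62 in WT replicate 2.

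Seed reserve genes split by member. PAP85, a vicilin-like storage protein, was 12.22 and 12.51 in WT and 13.59 and 14.60 in phyB (1.72, SE 0.45, limma adjusted p = 0.70). ICL, isocitrate lyase of the glyoxylate cycle that turns stored oil into sugar, was 15.81 and 15.88 in WT and 16.51 and 17.18 in phyB (1.00, SE 0.37, adjusted p = 0.79). In both genes the 2 phyB arrays lay above the 2 WT arrays (33.3% of the list, against 14.7% of all probe sets). The remaining pair gave 1.07 for PAP85 and 0.64 for ICL. The other 4 of the 6 measured showed no such separation, with PEX4, a peroxisome biogenesis factor, at -0.29 (SE 0.45), and the list had a median of 0.04, or 0.43 in the remaining pair.

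Of 35 genes measured in the cell wall list, 18 were positive and 17 negative, and none passed the test. The list was matched by symbol and includes PMEAMT at -0.23 (SE 0.36), a phosphoethanolamine methyltransferase and not a cell wall gene. The median was 0.07, or 0.21 in the remaining pair. In 10 (28.6%, against 14.7% of all probe sets) both phyB arrays lay above both WT arrays, and in 5 (14.3%, against 18.2%) below. The 3 of smallest p encode expansins, which loosen the wall of growing cells. EXPA20 was 10.02 and 9.77 in WT and 11.33 and 11.06 in phyB (1.3, SE 0.36, limma adjusted p = 0.70). EXPA15 was 9.57 and 10.07 in WT and 11.41 and 10.71 in phyB (1.24, SE 0.41). EXPA8 was 12.06 and 14.32 in WT and 14.95 and 15.12 in phyB (1.85, SE 0.61), with 0.63 in the remaining pair. The other 4 alpha-expansins measured, grouped after their values were seen, were EXPA4 at 2.01 (SE 0.80), EXPA7 at 1.74 (SE 0.59), EXPA9 at 1.24 (SE 0.46) and EXPA18 at 0.24 (SE 0.46). EXPA4 was 9.13 in WT replicate 1 and 12.26 in WT replicate 2, against 12.53 and 12.88 in phyB, so most of its difference lies between the WT arrays. The remaining pair gave 0.27 for EXPA4, 0.64 for EXPA7, 0.98 for EXPA9 and -0.42 for EXPA18. Other members of the expansin family went both ways, with EXPB3 at 0.73 (SE 0.43), EXPB1 at 0.24 (SE 0.44) and EXLA3 at 0.20 (SE 0.47), and EXLA1 at -0.32 (SE 0.42), EXLA2 at -0.58 (SE 0.46) and EXLB1 at -0.66 (SE 0.46).

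Hormone genes showed small differences. Of 9 auxin genes measured 7 were negative and none passed the test, with a median of -0.26 and -0.23 in the remaining pair. In 5 of them (55.6%) both phyB arrays lay below both WT arrays, against 18.2% of all probe sets. GH3.17, which conjugates auxin to amino acids, was 12.53 and 12.57 in WT and 12.02 and 11.47 in phyB (-0.80, SE 0.33, limma adjusted p = 0.83). LBD16, a transcription factor of lateral root formation, stood at -0.80 (SE 0.44) and IAA29, an auxin response repressor, at -0.57 (SE 0.33). The 5 gibberellin genes lay between 0.06 and 0.47 with overlapping arrays throughout, GID1C and GID1B, both receptors, at 0.29 each (SE 0.39 and 0.49) and SPY, a negative regulator, at 0.47 (SE 0.66). The gibberellin median was 0.29, or 0.28 in the remaining pair. The 3 measured light signalling and clock genes, with a median of -0.19 and -0.37 in the remaining pair, were HAT2 at -0.29 (SE 0.35), GI at -0.19 (SE 0.43) and FHL, which carries phytochrome A into the nucleus, at -0.08 (SE 0.36).

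Of 6 abscisic acid, dehydration and cold genes (median 0.07, remaining pair 0.21), 4 were positive. In 2 (33.3%) both phyB arrays lay above both WT arrays and in 1 (16.7%) below, against 14.7% and 18.2% of all probe sets. The 1 below was COR47, at 15.63 and 15.43 in WT and 14.50 and 15.42 in phyB (-0.57, SE 0.41). STZ, a zinc finger repressor induced by salt and cold, was 8.87 and 8.90 in WT and 9.68 and 10.40 in phyB (1.15, SE 0.42, limma adjusted p = 0.79). The gene named LEA was 10.08 and 10.71 in WT and 11.65 and 11.28 in phyB (1.07, SE 0.39), whereas the dehydrin LTI30 stood at -0.69 (SE 0.41) with overlapping arrays. Of the 10 genes measured in the defence and jasmonate list, all but PDF2.1 lay between -0.26 and 0.38, with PDF1.4 at 0.34 (SE 0.44). The list was matched by symbol. It therefore holds PDF1B at 0.38 (SE 0.44) and PDF1A at 0.25 (SE 0.40), which are peptide deformylases and not defence genes. The list's median was 0.22, or 0.19 in the remaining pair.

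Of 8 histone and cell cycle genes 6 were negative (median -0.20, remaining pair 0.02). HTB1, a histone H2B, was the 1 of 8 (12.5%, against 14.7% of all probe sets) with both phyB arrays above both WT arrays. It was 11.02 and 11.26 in WT and 12.07 and 12.27 in phyB (1.03, SE 0.32, limma adjusted p = 0.74). AUR2, an Aurora kinase of mitosis, was the 1 of 8 (12.5%, against 18.2%) with both phyB arrays below both WT arrays, at -0.72 (SE 0.44). HTB11 stood at -0.48 (SE 0.36).

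Of 26 UDP-glycosyltransferases, which attach sugars to small molecules, 17 were positive and none passed the test, with a median of 0.26 and 0.03 in the remaining pair. In 6 (23.1%, against 14.7% of all probe sets) both phyB arrays lay above both WT arrays and in 3 (11.5%, against 18.2%) below. UGT76B1 was 12.42 and 12.63 in WT and 11.46 and 11.07 in phyB (-1.26, SE 0.42, limma adjusted p = 0.74). UGT72E2 stood at 0.87 (SE 0.37) and UGT72E1 at 1.66 (SE 0.76), the latter with WT arrays at 8.63 and 11.57 and a remaining pair of 0.41. Of 8 cytochrome P450 genes (median -0.28, remaining pair -0.40), 1 (12.5%, against 14.7% of all probe sets) lay above WT in both phyB arrays and 4 (50%, against 18.2%) below. CYP84A4 was 8.90 and 8.87 in WT and 9.83 and 10.01 in phyB (1.03, SE 0.38). CYP71B6 and CYP71B34 were lower in both phyB arrays, at -0.53 (SE 0.30) and -0.51 (SE 0.36). Of 10 glutathione S-transferases (median -0.07, remaining pair -0.35), 2 lay above WT and 2 below in both phyB arrays (20.0% each, against 14.7% and 18.2% of all probe sets). GSTU27 was 14.62 and 13.35 in WT and 12.99 and 13.06 in phyB (-0.95, SE 0.42), so WT replicate 1 sets most of its size, and the difference was -0.32 without that array. GSTU22 stood at -0.61 (SE 0.35) and GSTU20 at 0.81 (SE 0.46), the latter as low as 0.43 with 1 array left out.

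In 4 further families most members were negative and none passed the test, where 7580 of the 13647 probe sets were negative. Of 9 beta-glucosidases 8 were negative (median -0.39, remaining pair -0.54), with BGLU19 at -0.52 (SE 0.38), BGLU16 at -0.43 (SE 0.36) and BGLU44 at -0.39 (SE 0.34). Of 8 aldehyde dehydrogenases 7 were negative (median -0.34, remaining pair -0.24), led by ALDH6B2 at -0.61 (SE 0.32), ALDH3F1 at -0.56 (SE 0.33) and ALDH7B4 at -0.53 (SE 0.35). Of 10 autophagy genes 9 were negative (median -0.18, remaining pair -0.04), with ATG8B at -0.93 (SE 0.42), ATG8F at -0.57 (SE 0.47) and APG8A at -0.46 (SE 0.33). Their medians in WT were 0.46 and -0.46 relative to the WT mean, and without WT replicate 1 the median of the difference was 0.18. Of 7 RALF-like peptide genes, which encode secreted growth signals, 6 were negative (median -0.21, but 0.22 without WT replicate 1 and -0.03 in the remaining pair), with RALFL24 at -0.60 (SE 0.42), RALFL22 at -0.45 (SE 0.39) and RALFL27 at -0.38 (SE 0.57). The 8 reference genes had a median of -0.03, or -0.35 in the remaining pair, with GAPC2 at 0.60 (SE 0.30), TUB1 at -0.58 (SE 0.43) and TUB9 at -0.40 (SE 0.43).

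**Figure D4:**
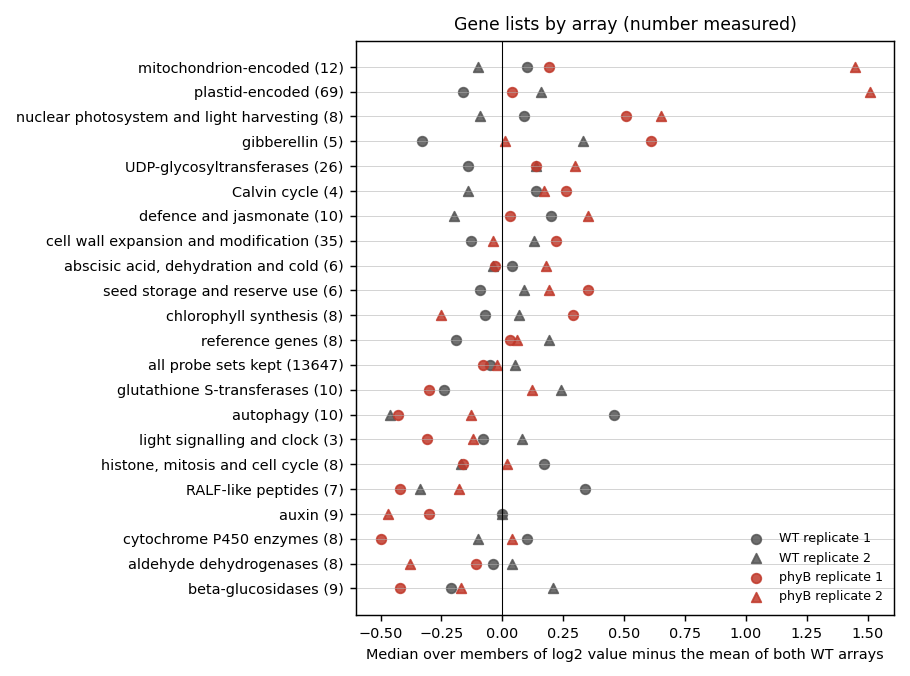
Median over the measured members of each gene list, in each WT and phyB array, of the log2 value minus the mean of both WT arrays. The plastid-encoded and mitochondrion-encoded lists stand at 1.51 and 1.45 in phyB replicate 2 and at 0.04 and 0.19 in phyB replicate 1, and the nuclear photosystem list at 0.51 and 0.65 in replicates 1 and 2.

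The double mutant and phyA differ by phyB-9 as well, and share no array with phyB and WT. In that comparison no probe set passed the test (0%), with 67 higher and 40 lower at an unadjusted p under 0.05, 0.491% and 0.293% of those tested. Its differences did not follow those of phyB against WT. Across the 13647 probe sets the correlation was -0.14, given as a description. Of the 531 probe sets higher in phyB at an unadjusted p under 0.05, 161 (30.3%) were also higher in phyAphyB than in phyA, and of the 278 lower ones 125 (45.0%) were lower, beside 42.1% with a shared sign over all probe sets. Of the 74 at least 1 above WT in every pair, 32 had a positive difference there, and of the 17 below, 8 a negative one.

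PDF2.1, 253767_at and PAP85 were among the named probe sets higher with phyB-9 in both backgrounds. PDF2.1 was 9.96 and 9.44 in phyA and 11.67 and 10.99 in phyAphyB (1.63, SE 0.49, limma adjusted p = 1.00). The unnamed 253767_at was 13.95 and 14.19 in phyA and 15.59 and 15.85 in phyAphyB (1.65, SE 0.30, adjusted p = 1.00). PAP85 was 12.12 and 13.12 in phyA and 13.79 and 14.30 in phyAphyB (1.43, SE 0.45). In all 3 both arrays with phyB-9 lay above both without it, in either background. For PDF2.1 and 253767_at this was fixed by the picking in the WT background, and for PAP85, of smallest p in its list, it was favoured. The share of all probe sets so separated in the phyA background was not counted. AT5G10770 was also higher there, at 7.31 and 8.04 in phyA and 9.42 and 9.51 in phyAphyB (1.79, SE 0.50). It was picked for a small p of phyB against phyA, and the phyA arrays enter this difference. By contrast 252957_at was 11.22 and 10.74 in phyA and 10.82 and 10.51 in phyAphyB, below both phyB arrays.

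The test of whether the phyB-9 difference itself depended on the phyA allele called 0 probe sets (0%). The genes below were picked for a small p of phyB against WT, and that difference is subtracted here. The picking therefore pushes their values to the side opposite to phyB minus WT, so their sizes are no evidence of such dependence. The difference between backgrounds was -3.74 for 252957_at (SE 0.57, limma adjusted p = 0.88), 2.74 for AT3G55920 (SE 0.54, adjusted p = 1.00) and 2.11 for ATSBT5.2 (SE 0.49, adjusted p = 1.00). It was -3.25 for psbC (SE 0.69, adjusted p = 1.00), -3.12 for AT1G76010 (SE 0.88) and -2.38 for LHCB4.2 (SE 0.52). In psbC and LHCB4.2 phyAphyB stood below phyA, by log2 differences of -1.40 (SE 0.49) and -0.96 (SE 0.37), where phyB stood above WT. For PDF2.1 the difference between backgrounds was -0.78 (SE 0.69) and for PAP85 -0.30 (SE 0.64).

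**Figure D5:**
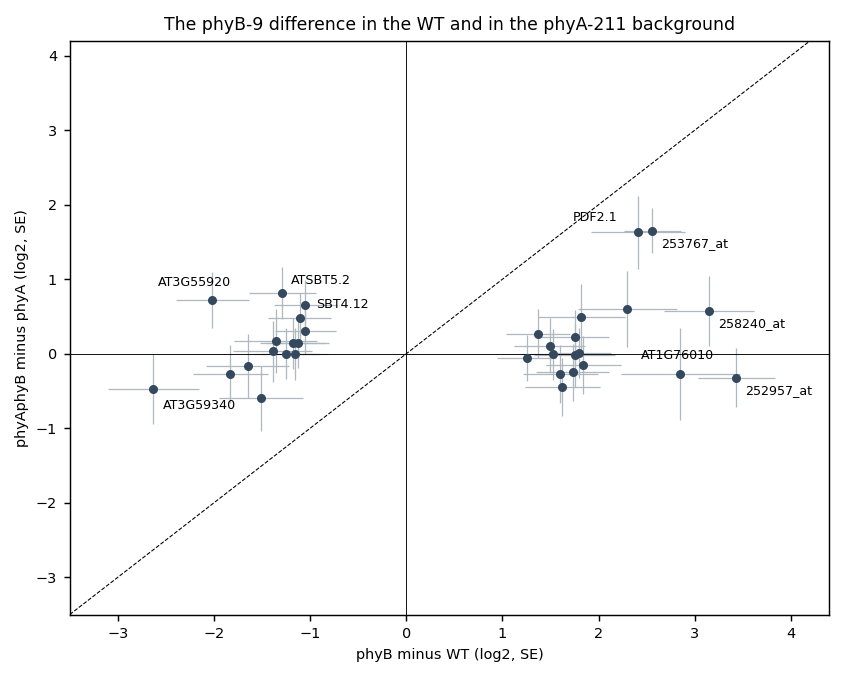
Difference of phyB from WT (horizontal) against the difference of phyAphyB from phyA (vertical), both log2 with standard errors as bars, for the 30 named and 3 unnamed probe sets of smallest p in the first comparison. The points were picked on the horizontal axis. On the vertical one PDF2.1 and 253767_at lie at 1.63 and 1.65 and the others between -0.60 and 0.82.

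Set against phyA, the other single mutant, phyB differed at 2 probe sets (0.0147% of those tested), 1 higher and 1 lower, neither with a gene name. At an unadjusted p under 0.05 there were 130 higher (0.953%) and 135 lower (0.989%). In WT and phyB the 2 called probe sets lay near each other: 264508_at was 15.06 and 15.04 in WT and 15.01 and 14.00 in phyB, and 248066_at was 5.67 and 6.21 in WT and 6.25 and 6.60 in phyB. The 5 named genes of smallest p were not called. AT3G59340 stood lower in phyB than in phyA by a log2 difference of -2.72 (SE 0.47, limma adjusted p = 0.27), PDF2.1 higher at 2.70 (SE 0.49, adjusted p = 0.31) and AT5G10770 higher at 2.60 (SE 0.50, adjusted p = 0.37). AT5G60250 stood at -3.60 (SE 0.63) and AT3G45730 at -1.51 (SE 0.36). AT5G10770 also lay above WT, at 9.77 and 10.78 in phyB against 8.20 and 8.48 in WT and 7.31 and 8.04 in phyA. AT5G60250 was 10.98 and 11.06 in phyA, 8.20 and 6.63 in phyB and 8.5 and 8.21 in WT, so its phyA arrays lay above those of both.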

How the data were processed

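Affymetrix ATH1 arrays were measured in 8 samples, 2 per genotype, grouped by the genotype in their titles; 1 phyA title carries no replicate number. The authors deposited linear intensities, as whole numbers (software: not given in the sources used here). Their 2% trimmed means were 2500.2 to 2500.3 on all arrays, so the authors had scaled them, and no further normalization was applied. The values were taken as log2(intensity + 39), the dimmest 40% by mean over the 8 arrays were dropped, and 1 model with 4 genotype means and an intensity trend was fitted over all 8 arrays in limma 3.58.1 under R 4.3.3. The spread had 4 residual degrees of freedom and a prior of 5.87. Tests were two-sided with Benjamini-Hochberg adjustment over the 13647 probe sets kept, called at 0.05, and the fit was tested on simulated data. The number of arrays limits the precision.

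Of 22746 probe sets, 13513 name 1 gene, 503 name several and 8730 are unnamed here; 13436 were found in the RefSeq gene table of TAIR10.1. Lists (21, matched by symbol, 1 probe set per gene, the brightest) hold the measured genes only: the lists written are longer. Named genes were the 15 per direction of smallest p whose arrays did not overlap and the 3 such unnamed probe sets. They also included the 3 members of each list of smallest p for phyB against WT and the 5 of smallest p against phyA. The members and lists were chosen with earlier results of these data known. No sequence or coordinate is given, since no sequence was used here and no source names a genome build for the files. Alternatives changed the pseudocount, filter, normalization, trend, arrays used and pairing.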

Additional observations from a re-analysis of the deposited data

Results flagged for a closer look

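The test of phyB against phyA, 2 mutants set against the same WT, found a difference at 2 probe sets, both without a gene name here. The difference of phyB minus phyA was 6.92 for 264508_at (SE 0.69, limma adjusted p = 0.011) and -6.00 for 248066_at (SE 0.42, adjusted p = 0.00087). In phyA, 264508_at was 8.83 and 6.34 and 248066_at 12.39 and 12.46, while neither stood apart between phyB and WT, at -0.55 (SE 0.69) and 0.48 (SE 0.42). The phyAphyB arrays stood with phyA, at 6.07 and 5.88 for 264508_at and 11.86 and 12.08 for 248066_at. The dim side of both differences lies near the constant of 39 added before the log, with WT intensities of 12 and 35 for 248066_at and phyA log2 values down to 6.34 for 264508_at. Both sizes therefore depend on that constant, and with a constant of 1 no probe set was called.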

How the results depend on the processing

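The count for phyB against WT stayed at 0 under most alternatives. Where arrays are left out, a group with 1 array has no spread of its own, and the spread comes from the other groups. It was 2 with no filter (1 higher, 1 lower) and 2, both higher, with 60% of probe sets left out, and 0 to 70 when single arrays were left out. The 70, all higher in phyB, came without WT replicate 2, which leaves the WT array with the GAPDH ratio of 16.7. At an unadjusted p under 0.05 (recomputed under each alternative after seeing the data) there were 1236 with no filter, 518 to 1103 without single arrays, the 518 without WT replicate 1, and 361 without WT replicate 1 and phyB replicate 2. For phyB against phyA the count of 2 became 3 with median centring (1 higher, 2 lower), 0 with a pseudocount of 1, and 1 with 60% left out or without the 2 arrays of high GAPDH ratio together, and ran from 1 to 2 without single arrays, at 1 without either phyB array. The background difference gave 0 to 16 calls, the 16 without WT replicate 2, and phyAphyB against phyA 0 throughout. With a replicate block on the 6 numbered arrays of WT, phyB and phyAphyB, 0 were called for phyB against WT (1152 at an unadjusted p under 0.05), as without the block (716). The labels do not say that the numbers pair arrays, and deviations of same-numbered arrays correlated at -0.063 for WT with phyB, 0.639 for WT with phyAphyB and 0.15 for phyB with phyAphyB. No paired analysis was possible for comparisons with phyA because 1 phyA title has no number, so phyA shares only 1 number with the other groups.

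Of 1881 values of 100 named genes and probe sets under alternatives, 1851 kept direction and side, 10 passed the threshold and 20 reversed. Those that reversed had small differences: HAT2 at 0.14 without WT replicate 1 and 0.12 without both arrays of high ratio; FHL at 0.01 with quantile normalization, 0.00 without WT replicate 2 and 0.19 without phyB replicate 1; HEMA2 at 0.00 without WT replicate 2; PORB at 0.05 without WT replicate 1, 0.22 without phyB replicate 2 and 0.44 without both; SPY at -0.55 and -0.10 without WT replicate 1 and without both; GID1B at -0.04 without WT replicate 1 and -0.25 without phyB replicate 1; PDF1B at -0.17 and -0.20 and PEX4 at 0.09 and 0.30, without WT replicate 1 and without both; ATG8F at 0.13 without WT replicate 1; and RALFL27 at 0.06 and TUB9 at 0.00 without phyB replicate 1. Over all omissions of single arrays these ran from -0.72 to 0.14 for HAT2, -0.34 to 0.19 for FHL, -0.77 to 0.00 for HEMA2, -0.56 to 0.22 for PORB, -0.55 to 1.49 for SPY, -0.25 to 0.82 for GID1B, -0.17 to 0.93 for PDF1B, -0.68 to 0.09 for PEX4, -1.26 to 0.13 for ATG8F, -0.82 to 0.06 for RALFL27 and -0.80 to 0.00 for TUB9. The cause was not tested. AT1G76010, EXPA8, UGT72E1 and petB passed the threshold without WT replicate 2 (limma adjusted p = 0.015, 0.015, 0.021 and 0.045), as did 252957_at, 253767_at and 258240_at. With single arrays left out, the medians of these lists took both signs: chlorophyll synthesis (-0.25 to 0.29), gibberellin (-0.04 to 0.61), abscisic acid (-0.17 to 0.31), cell wall (-0.10 to 0.22), histone (-0.43 to 0.02), autophagy (-0.65 to 0.18), RALF (-0.64 to 0.22), P450 (-0.50 to 0.04), UDP-glycosyltransferases (-0.02 to 0.51), glutathione S-transferases (-0.36 to 0.12) and reference genes (-0.33 to 0.15).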
